A study of Mus musculus with 9 samples.

Results

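Matrix proteases and the proteins that restrain them were examined in colonic mucosa of mice with altered gastrin. The set was a list of 10 genes taken by symbol. It held the matrix metalloproteinases Mmp2, Mmp3, Mmp9, Mmp10, Mmp13 and Mmp14, the tissue inhibitors Timp1, Timp2 and Timp3, and Adamdec1. All of their probe sets were used, 22 of the 45101 on the array, and the 10 genes were among 18193 that had a probe set naming 1 gene. Expression was measured on 9 Affymetrix mouse arrays, 3 per genotype. The hGas mice were transgenic for hGas, with no promoter named in the labels, the Gas-/- mice lacked the gastrin gene, and the WT mice were wild type. All were male, 6 weeks old and labelled C57BL/6, and the mucosa was separated by injecting PBS beneath it. Nothing in the labels says whether each replicate is another mouse. The p-values below therefore reflect spread among samples, which may be technical. The comparisons ask how these genes stand with the gastrin gene gone and with the transgene present.

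Matrix metalloproteinases are zinc-dependent enzymes that cut collagens, proteoglycans and other proteins of the extracellular matrix, and most are secreted as inactive precursors. TIMP proteins bind the active enzymes and block them, and Timp3 is itself held in the matrix. Adamdec1 encodes decysin, a protease of the ADAM family made in the gut mucosa. In the gut wall these genes are transcribed mostly by fibroblasts, macrophages and other cells of the lamina propria, and less by the surface epithelium.

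Values were on the log2 scale, and a probe set was tested if at least 3 arrays reached log2 4, which 18 of the 22 probe sets and 8 of the 10 genes did. A gene with several was read by the probe set whose mean over the 9 arrays was highest. The 10 genes had between 1 and 6 probe sets each. Array medians lay between 4.13 and 4.16. Gast, the targeted gene, stayed near background throughout, with 1.95 ± 0.011 in hGas, 2.08 ± 0.082 in Gas-/- and 1.96 ± 0.020 in WT (log2, mean ± SD, n = 3 each), so its probe set checks neither the knockout nor the transgene. All 10 colonic epithelium markers passed the filter. All 7 smooth muscle markers passed it too, with a list mean of 12.78 ± 0.084 in hGas, 12.71 ± 0.11 in Gas-/- and 12.83 ± 0.11 in WT. A sign of RNA quality is how far the Gapdh probe set at the 3' end exceeds the one at the 5' end, and that log2 difference was -0.15 to -0.068 in hGas and -0.12 to -0.089 in Gas-/-, against -0.18 to -0.14 in WT. The Gapdh ranges of Gas-/- and WT did not overlap. The same difference for actin was larger, at 0.88 to 0.94 in hGas, 0.87 to 0.94 in Gas-/- and 0.76 to 0.89 in WT. Its ranges overlapped between the groups. The part of RNA quality in the results below was not tested.

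The bases before the start of these genes differ in kind. Those of Timp2 and Timp3 are shown because these inhibitors passed the test, and those of Mmp3, Mmp10 and Mmp13, 3 secreted proteases of chromosome 9 of which none was called, are shown beside them. RefSeq promoter sequences of build GRCm38.p6 were available for 7 of the 10 genes, and Mmp2, Mmp9 and Adamdec1 had no entry. The 250 bases before the start were searched on both strands for 3 motifs. The first was TGANTCA, the core of an element that the transcription factor AP-1 can bind. The next was GGGCGG, the letters of a GC box as found in many promoters without a TATA box. The last was TATAAA, the letters of the TATA box itself. Mmp3, Mmp10 and Mmp13 each held 1 TGANTCA and 1 TATAAA and no GGGCGG. Timp1, Timp2 and Timp3 each held 1 GGGCGG, Mmp14 held 2 that lie end to end without overlap, and none of these 4 held TGANTCA or TATAAA. Among all 32851 promoters of that length, 6.749% held TGANTCA, 32.742% held GGGCGG and 12.368% held TATAAA. The GC content was 37.2% to 40.4% in the promoters of Mmp3, Mmp10 and Mmp13 and 54.4% to 68.0% in those of Timp1, Timp2, Timp3 and Mmp14, against a median of 52.4% over all promoters. A match is a description of the letters and not a binding site. The 100 bases just before the start follow, 5′ to 3′ along the gene's strand, with the matches in capitals (CCGCCC is GGGCGG on the other strand). Mmp3 (chr9:7445722-7445821), Mmp10 (chr9:7502242-7502341), Mmp13 (chr9:7272414-7272513) and Timp3 (chr10:86300312-86300411) lie on the plus strand and Timp2 (chr11:118355412-118355511) on the minus strand.
Mmp3: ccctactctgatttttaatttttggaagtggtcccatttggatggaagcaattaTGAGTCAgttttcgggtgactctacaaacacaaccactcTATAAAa
Mmp10: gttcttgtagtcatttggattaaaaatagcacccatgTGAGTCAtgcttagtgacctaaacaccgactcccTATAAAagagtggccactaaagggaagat
Mmp13: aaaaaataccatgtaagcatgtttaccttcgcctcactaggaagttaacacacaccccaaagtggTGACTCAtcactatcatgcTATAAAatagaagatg
Timp2: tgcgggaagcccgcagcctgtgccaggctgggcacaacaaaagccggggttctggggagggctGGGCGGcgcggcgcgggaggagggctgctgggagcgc
Timp3: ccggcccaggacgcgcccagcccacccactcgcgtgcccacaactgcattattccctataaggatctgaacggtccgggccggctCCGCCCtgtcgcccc

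Adamdec1 was the 1 member called as higher than in WT in both altered genotypes. It was 1.73-fold higher in hGas and 1.44-fold higher in Gas-/-. Timp2 and Timp3 were 1.28-fold and 1.43-fold higher in Gas-/- than in WT through 1 probe set each, and through the same probe sets they were 1.37-fold and 1.73-fold lower in hGas than in Gas-/-. None of the 4 metalloproteinase members tested (Mmp2, Mmp3, Mmp13 and Mmp14) was called in any comparison, and Mmp9 and Mmp10 were not tested. In bulk mucosa, fewer cells of a type and less RNA per cell cannot be told apart.

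**Figure D1:**
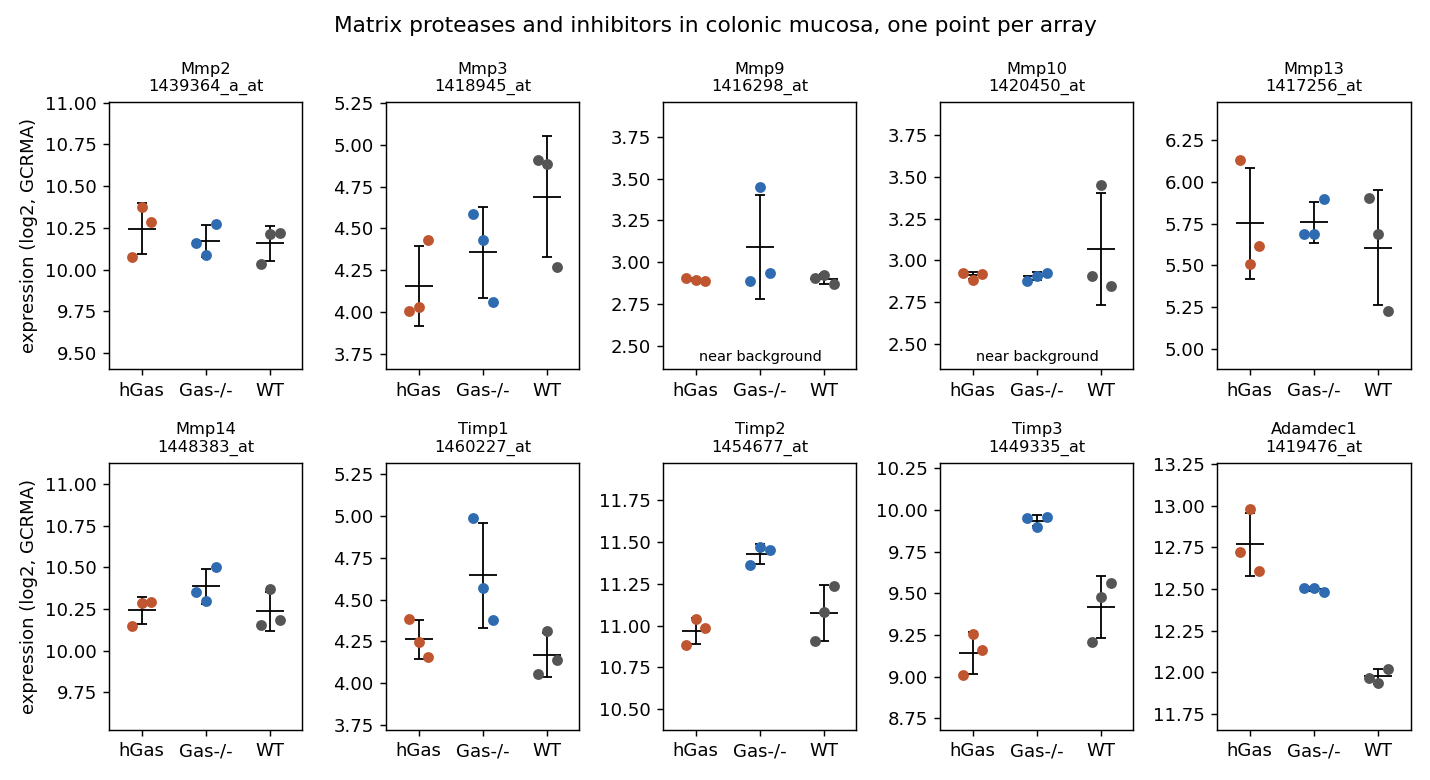
Each panel shows 1 member by the probe set that represents it, with log2 expression on the vertical axis (each panel has its own range) and the genotypes on the horizontal axis. Points are arrays, and the lines are the mean and 1 SD of 3 arrays. The 3 groups are separate for Adamdec1, with WT lowest, and the Gas-/- arrays stand above the other 6 for Timp2 and Timp3.

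Among 8 members tested for Gas-/- vs WT, 3 were higher and 0 lower at an adjusted p under 0.05 (limma, Benjamini-Hochberg over all 11273 genes tested), where 6.64% of all genes were higher and 5.48% lower. At an unadjusted p under 0.05, 4 were higher and 0 lower, where 14.2% and 11.7% of all genes were. For hGas vs WT, 1 of 8 was higher and 0 were lower, with 0.639% and 0.523% of all genes called in those directions. At an unadjusted p under 0.05, 1 was higher and 2 lower there, against 7.71% and 6.45% of all genes. Over all genes, 131 were called for hGas vs WT, and 283 with the replicate number as a block. For hGas vs Gas-/-, 1 was higher and 2 were lower, where the shares of all genes were 8.05% and 8.51%. The moderated F test over the 3 genotypes called Adamdec1 (adjusted p = 0.000401), Timp3 (0.00107) and Timp2 (0.00832), 3 of 8 members, and 15.8% of all genes. The probe set that stands for Timp3 in these counts had the highest mean only through its Gas-/- arrays, as described below. The median log2 difference of the 8 members was 0.25 for Gas-/- vs WT, 0.048 for hGas vs WT and -0.17 for hGas vs Gas-/-, and over all genes it was 0.0067, 0.0080 and 0.0014. The first 2 comparisons share the WT arrays, and the last shares its arrays with both.

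The gelatinases were examined first. Mmp2, which cuts denatured collagen and basement membrane collagen, was well above background on its 2 probe sets. Probe set 1439364_a_at read 10.08, 10.37 and 10.29 in the hGas arrays, 10.16, 10.09 and 10.27 in the Gas-/- arrays and 10.04, 10.21 and 10.22 in the WT arrays. The 3 groups overlapped. The log2 difference was 0.090 for hGas vs WT (95% interval -0.10 to 0.28, adjusted p = 0.706) and 0.017 for Gas-/- vs WT (-0.18 to 0.21, adjusted p = 0.935). The second Mmp2 probe set, 1416136_at, stood at 0.059 for hGas vs WT and 0.028 for Gas-/- vs WT. Both probe sets of Mmp9, the other gelatinase and one that neutrophils also carry, were near background and were not tested. They read between 2.87 and 3.45 (1416298_at) and between 1.82 and 1.84 (1448291_at), and the value of 3.45 came from Gas-/- replicate 2. The 6 neutrophil markers on the array (S100a8, S100a9, Cxcr2, Mpo, Elane and Csf3r) were also under log2 4 on all 9 arrays, with a list mean of 2.49 in hGas, 2.51 in Gas-/- and 2.49 in WT.

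The stromelysins, which cut proteoglycans and can activate other metalloproteinases, were low. Mmp3 read 4.01, 4.03 and 4.43 in hGas, 4.59, 4.43 and 4.06 in Gas-/- and 4.91, 4.89 and 4.27 in WT. The group ranges overlapped, since WT replicate 3 lay below the highest hGas array. The log2 difference was -0.53 for hGas vs WT (SE 0.206, adjusted p = 0.274, unadjusted p = 0.0280) and -0.33 for Gas-/- vs WT (adjusted p = 0.351). Its lowest array stood at 4.01, just over the level required for testing. Mmp10 read between 2.85 and 3.45, with 3.45 in WT replicate 2 and every other array between 2.85 and 2.93, and was not tested.

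Mmp13, a collagenase that cuts fibrillar collagen, read 6.13, 5.51 and 5.62 in hGas, 5.69, 5.69 and 5.90 in Gas-/- and 5.90, 5.69 and 5.23 in WT. Its arrays spread as widely within hGas and within WT as between the genotypes. The log2 difference was 0.15 for hGas vs WT (95% interval -0.30 to 0.59, adjusted p = 0.797) and 0.15 for Gas-/- vs WT (-0.29 to 0.60, adjusted p = 0.679).

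Mmp14, a protease anchored in the cell membrane that activates the Mmp2 precursor, had 3 probe sets over the filter and none was called. Probe set 1448383_at read 10.15, 10.28 and 10.29 in hGas, 10.35, 10.30 and 10.50 in Gas-/- and 10.16, 10.37 and 10.18 in WT. The hGas and Gas-/- arrays did not overlap, by a narrow gap, and the WT arrays overlapped both. The log2 difference was 0.0067 for hGas vs WT (adjusted p = 0.981), 0.15 for Gas-/- vs WT (adjusted p = 0.251) and -0.14 for hGas vs Gas-/- (adjusted p = 0.236). Over the 3 probe sets the difference ran from -0.027 to 0.22 for hGas vs WT and from 0.032 to 0.23 for Gas-/- vs WT.

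Timp1, the inhibitor that is induced in inflamed and wounded tissue, read 4.38, 4.25 and 4.16 in hGas, 4.99, 4.57 and 4.38 in Gas-/- and 4.05, 4.31 and 4.14 in WT. The Gas-/- arrays did not overlap the WT arrays, and the lowest of them lay within the hGas range. The log2 difference for Gas-/- vs WT was 0.48 (SE 0.153, 1.39-fold), which did not pass the test (limma adjusted p = 0.0775). Without Gas-/- replicate 3 it was 0.61 and passed (adjusted p = 0.041), in 1 of the 9 fits that left out 1 array. Without Gas-/- replicate 1 it was 0.305, and over the 9 fits the adjusted p reached 0.195. The lowest Timp1 array stood at 4.05, just over the level required for testing. Between hGas and WT the difference was 0.094 (95% interval -0.25 to 0.44, adjusted p = 0.836).

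Timp2, which besides blocking metalloproteinases takes part in activating the Mmp2 precursor on Mmp14, read 10.89, 11.04 and 10.98 in hGas on probe set 1454677_at. The Gas-/- arrays read 11.36, 11.47 and 11.46, and the WT arrays 10.91, 11.08 and 11.24. All 3 Gas-/- arrays lay above all 6 others, while hGas and WT overlapped. Timp2 was higher in Gas-/- than in WT by 0.35 (log2, SE 0.0798, 1.28-fold, limma adjusted p = 0.0188). It was lower in hGas than in Gas-/- by a log2 difference of -0.46 (1.37-fold, adjusted p = 0.00416). The hGas vs WT difference was -0.11 (95% interval -0.28 to 0.074, adjusted p = 0.614). The Gas-/- vs WT call was lost without Gas-/- replicate 2 (0.33, adjusted p = 0.0618), Gas-/- replicate 3 (0.34, adjusted p = 0.0688) or WT replicate 2 (0.36, adjusted p = 0.0558).

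Timp3, the matrix-bound inhibitor that also blocks several ADAM proteases, had the widest separation of an inhibitor. Probe set 1449335_at read 9.01, 9.26 and 9.16 in hGas, 9.95, 9.90 and 9.96 in Gas-/- and 9.21, 9.48 and 9.56 in WT. The Gas-/- arrays lay above all others and hGas overlapped WT only through WT replicate 1. Timp3 was higher in Gas-/- than in WT by 0.52 (log2, SE 0.0935, 1.43-fold, limma adjusted p = 0.00615). It was lower in hGas than in Gas-/- by a log2 difference of -0.79 (SE 0.0935, 1.73-fold, adjusted p = 0.000399). Between hGas and WT it was -0.27 (95% interval -0.48 to -0.065, unadjusted p = 0.0157, adjusted p = 0.212). The called differences of Timp3 passed the test in each of the 9 fits that left out 1 array.

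The probe sets of Timp2 and Timp3 did not all give the same answer. For Gas-/- vs WT, the other 4 Timp2 probe sets over the filter differed by -0.16 to 0.11, and none was called. The other 3 Timp3 probe sets differed by -0.10 to -0.019, and none was called either. Timp3 was read by 1449335_at only because of its Gas-/- arrays. Probe set 1419089_at read higher than 1449335_at in WT (9.54 against 9.42) and hGas (9.21 against 9.14), and lower in Gas-/- (9.52 against 9.935). By the level in WT or hGas, 1419089_at would have stood for the gene, with a Gas-/- vs WT difference of -0.019 (limma adjusted p = 0.939). The Timp3 gene calls are thus not independent of the group compared. The sixth Timp2 probe set, 1437081_at, read between 2.32 and 2.37 and was not tested. Over all 18 member probe sets tested, 3 were higher and 0 lower for Gas-/- vs WT (4 and 0 at an unadjusted p under 0.05), where 5.74% of all 19822 probe sets were higher and 5.25% lower (13.1% and 12.2% unadjusted). For hGas vs WT, 1 was higher and 0 lower (1 and 5 unadjusted), against 0.444% and 0.429% of all probe sets (6.69% and 6.90% unadjusted). For hGas vs Gas-/-, 0 were higher and 2 lower (1 and 5 unadjusted), against 7.16% and 7.61% (14.4% and 14.9% unadjusted).

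**Figure D2:**
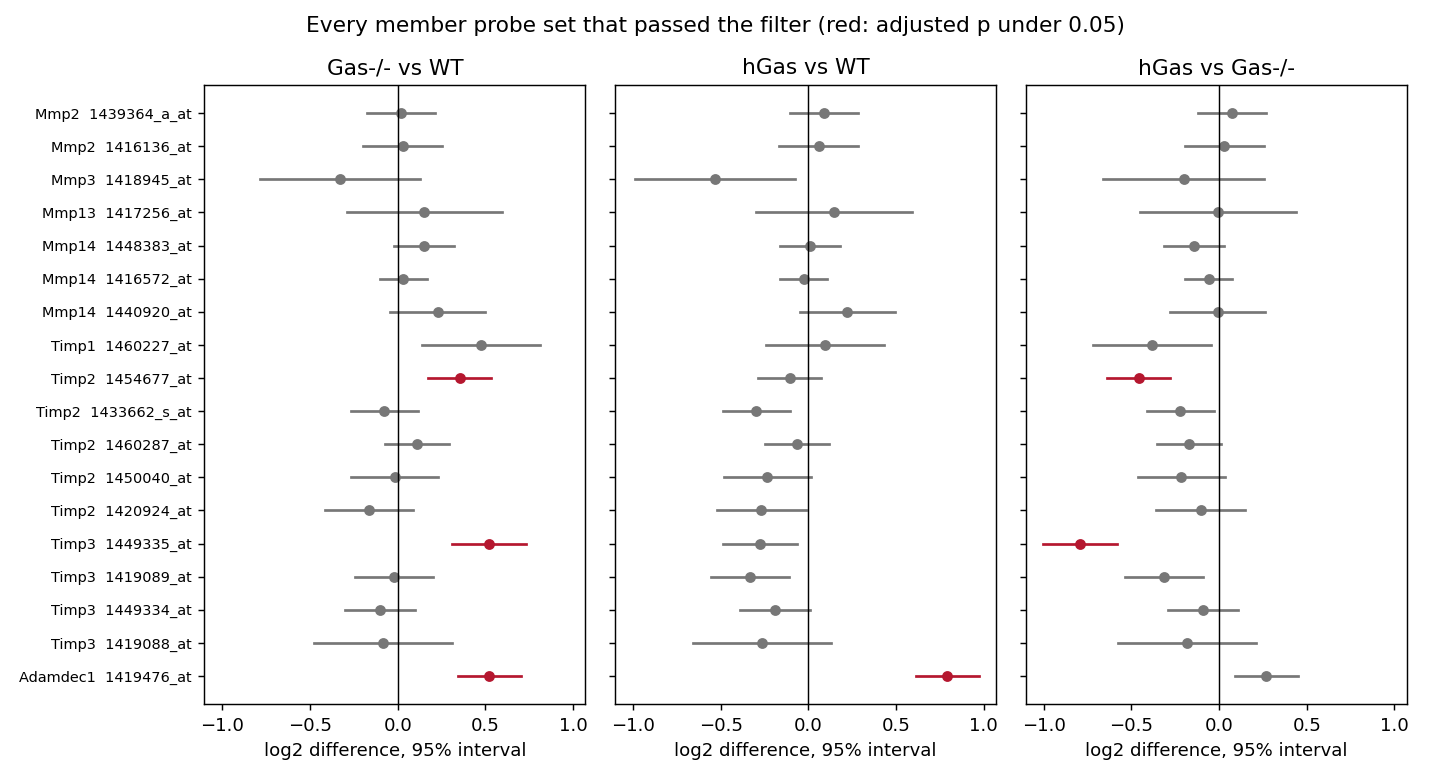
Log2 difference of each of the 18 member probe sets tested, with its 95% interval, for Gas-/- vs WT, hGas vs WT and hGas vs Gas-/- (left to right), and red where the adjusted p was under 0.05. One probe set each of Timp2 and Timp3 stands apart in the left and right panels, and Adamdec1 in the left and middle panels.

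Against WT, the hGas values of both inhibitors were below 0 in every probe set over the filter. The differences of the 5 Timp2 probe sets ran from -0.30 to -0.065 and those of the 4 Timp3 probe sets from -0.33 to -0.19. None was called without a block. All were read on the same arrays, so their shared sign is not repeated evidence. How often all probe sets of a gene share a sign over all genes was not counted. The lowest Timp2 value was that of 1433662_s_at (-0.30, unadjusted p = 0.00670, adjusted p = 0.156) and the lowest Timp3 value that of 1419089_at (-0.33, unadjusted p = 0.00788, adjusted p = 0.166). With the replicate number as a block, 1433662_s_at was called for hGas vs WT (adjusted p = 0.0345), so that 2 member probe sets were called in place of 1. Against Gas-/-, the 5 Timp2 probe sets ran from -0.46 to -0.11 and the 4 Timp3 probe sets from -0.79 to -0.092. Probe set 1419089_at of Timp3 stood at -0.31 there (adjusted p = 0.0639). Of the 9 fits that left out 1 array, it passed in 2, without WT replicate 1 (adjusted p = 0.0346) or WT replicate 3 (0.0447). In the others it was not called, with an adjusted p of up to 0.192. It also passed with array weights (0.0484), in a fit to the 6 arrays compared (0.0421) and with the block (0.0396). Probe set 1433662_s_at of Timp2 stood at -0.22 (adjusted p = 0.122) and passed with the block (0.0224).

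A fit added after these differences were seen took each probe set minus the mean of the gene's other probe sets over the filter. It covered 13664 probe sets, 14 of them of the members. For Gas-/- vs WT it called 2 of the 14, against 6.72% of all. Probe set 1449335_at of Timp3 moved by 0.59 more than the rest of its gene (adjusted p = 0.00278), and 1454677_at of Timp2 by 0.39 more (adjusted p = 0.0129). The Timp2 value was not called without Gas-/- replicate 1 (0.35, adjusted p = 0.0534), Gas-/- replicate 3 (0.37, adjusted p = 0.0534), WT replicate 1 (0.37, adjusted p = 0.0501) or WT replicate 2 (0.37, adjusted p = 0.0525). For hGas vs Gas-/- it called 2, against 6.45% of all, both in Timp3: 1449335_at at -0.60 (adjusted p = 0.00243) and 1449334_at at 0.34 (adjusted p = 0.0269). Probe set 1449334_at itself differed by -0.092, and the mean subtracted from it holds 1449335_at, so its value is not a separate change. For hGas vs WT it called 0 of the 14, against 0.0146% of all. At an unadjusted p under 0.05, 0 were higher and 0 lower there, against 4.25% and 4.21% of all. The unadjusted counts were 2 higher and 2 lower for Gas-/- vs WT, against 10.4% and 10.6% of all. They were 1 and 2 for hGas vs Gas-/-, against 9.43% and 9.62%. With the probe sets of a gene averaged instead, the Gas-/- vs WT difference was 0.034 for Timp2 (adjusted p = 0.806) and 0.080 for Timp3 (adjusted p = 0.621). For hGas vs Gas-/- the averaged Timp2 difference was -0.20 (adjusted p = 0.0970) and was not called, while the call of Timp3 was kept. The transcript forms that each probe set reads were not analysed here.

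**Figure D3:**
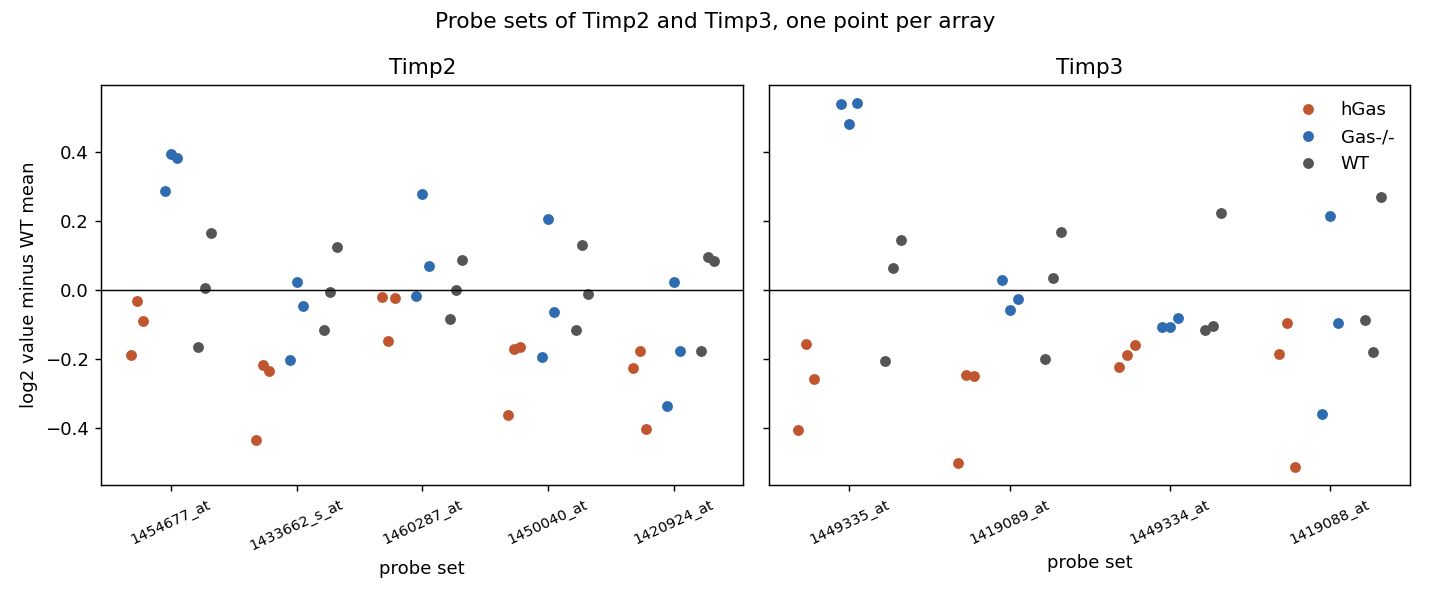
Log2 value minus the WT mean for each array (points), by probe set of Timp2 (left) and Timp3 (right), with hGas, Gas-/- and WT side by side. The Gas-/- points stand 0.35 above WT on average in 1454677_at and 0.52 above in 1449335_at. The hGas averages lie under 0 in all 9 probe sets, which were read on the same arrays and are not separate evidence.

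Adamdec1 had 1 probe set, 1419476_at. It read 12.72, 12.98 and 12.61 in hGas, 12.50, 12.51 and 12.48 in Gas-/- and 11.97, 11.94 and 12.02 in WT. No array of a group overlapped another group, and the order was hGas, Gas-/- and then WT from high to low. The group levels were 12.77 ± 0.19 in hGas, 12.50 ± 0.013 in Gas-/- and 11.98 ± 0.043 in WT (log2, mean ± SD, n = 3 each). It was higher in hGas than in WT by 0.79 (log2, SE 0.0795, 1.73-fold, limma adjusted p = 0.00256). It was higher in Gas-/- than in WT by 0.52 (SE 0.0795, 1.44-fold, adjusted p = 0.00242). Both calls were kept in each of the 9 fits that left out 1 array.

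The difference in Adamdec1 between hGas and Gas-/- was less secure. It was 0.27 (log2, 1.21-fold, adjusted p = 0.0464), and in the fit to all probe sets the adjusted p was 0.0515. Without hGas replicate 2, the highest array, it was 0.17 (adjusted p = 0.0535), and without hGas replicate 1 it was 0.29 (adjusted p = 0.0869). It was also not called without Gas-/- replicate 1 (0.27, adjusted p = 0.115), Gas-/- replicate 2 (0.27, adjusted p = 0.0990) or Gas-/- replicate 3 (0.26, adjusted p = 0.127). The same held without WT replicate 1 (adjusted p = 0.0664), WT replicate 2 (0.0620) or WT replicate 3 (0.0535), with the difference at 0.27 each time.

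Across the 9 arrays, Timp2 and Timp3 had a Pearson r of 0.97, the highest of the member pairs, and Timp3 and Adamdec1 one of -0.12. Mmp3 and Adamdec1 had the lowest, -0.73. Each gene was read here by its probe set of highest mean. For Timp2 and Timp3 these were 1454677_at and 1449335_at, which departed from the other probe sets of their genes for Gas-/- vs WT. The r of 0.97 thus holds for those probe sets, and the others were not correlated. All r values are descriptions over 9 arrays that share the genotype differences and a common normalisation. The 3 genes with the highest r to Adamdec1 among 11272 others were 2210407C18Rik (0.98), Clec2e, a C-type lectin gene (0.96), and Rassf4, a gene of the Ras association domain family (0.95). In hGas vs WT they stood at 1.68, 1.10 and 1.11 (log2, adjusted p = 0.0242, 0.0397 and 0.0155) and in Gas-/- vs WT at 1.12, 0.87 and 0.53 (adjusted p = 0.0253, 0.0233 and 0.0610). All of them read highest in hGas replicate 2, as Adamdec1 did. The 3 with the highest r to Timp3 were Zfhx3, a homeobox transcription factor gene (0.98), AU020206 (0.98) and Pid1, a gene for a phosphotyrosine interaction domain protein (0.98). In Gas-/- vs WT they stood at 0.22, 0.63 and 0.33 (log2, adjusted p = 0.0423, 0.00228 and 0.00946), and in hGas vs WT at -0.20, -0.20 and -0.18 (adjusted p = 0.171, 0.376 and 0.235). These genes were picked by r over the same arrays, so it follows from the choice that they differ between genotypes much as their member does. Their adjusted p-values are no separate support. Some of the calls of these genes also rest in part on the choice of probe set. With probe sets averaged, Rassf4 stood at 0.44 for hGas vs WT (adjusted p = 0.0702). In Gas-/- vs WT, Pid1 then stood at 0.11 (0.108) and Zfhx3 at -0.082 (0.586). Clec2e kept its hGas vs WT value of 1.10 in that setting, and only its adjusted p moved (0.0556). Of the 9 fits that left out 1 array, the hGas vs WT call was kept in 3 for 2210407C18Rik, 2 for Clec2e and 8 for Rassf4, and the Gas-/- vs WT call in 4 for 2210407C18Rik, 5 for Clec2e and 3 for Zfhx3.

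**Figure D4:**
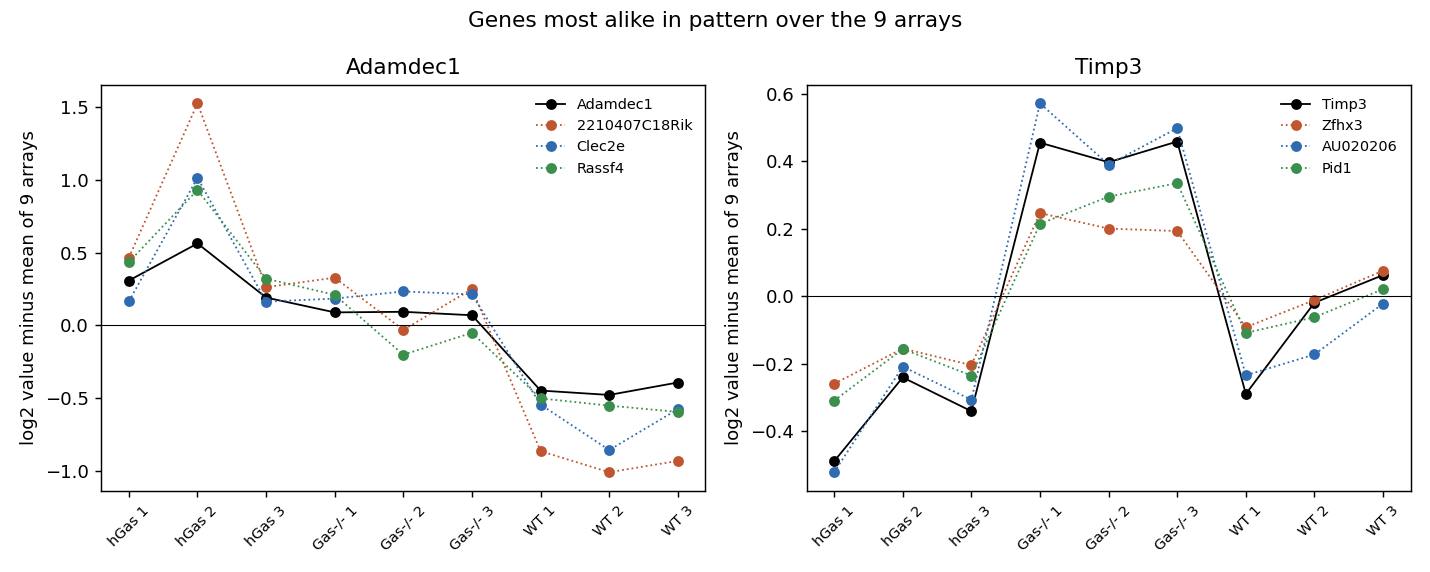
Log2 value minus the mean of the 9 arrays for Adamdec1 (left) and Timp3 (right) in black, and for the 3 genes with the highest Pearson r to each, with the arrays of hGas, Gas-/- and WT along the horizontal axis. The Adamdec1 lines are highest in hGas replicate 2 and lowest in the WT arrays, and the Timp3 lines are highest in the Gas-/- arrays.

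Other genes of matrix turnover were taken from 6 lists with 77 genes tested. Of these, 11 were higher and 2 lower in Gas-/- than in WT, 0 were called for hGas vs WT (limma, with 9 higher and 2 lower at an unadjusted p under 0.05), and 3 were higher and 10 lower in hGas than in Gas-/-. The shares of all genes to read these and the lists below against differ by threshold. At an adjusted p under 0.05 they were 6.64% higher and 5.48% lower for Gas-/- vs WT. They were 0.639% and 0.523% for hGas vs WT, and 8.05% and 8.51% for hGas vs Gas-/-. At an unadjusted p under 0.05 they were 14.2% and 11.7%, 7.71% and 6.45%, and 15.5% and 15.7% in the same order. Among 4 other metalloproteinases tested, Mmp11, stromelysin-3, was the 1 called. It read 4.88, 4.84 and 4.85 in hGas, 5.44, 5.18 and 5.51 in Gas-/- and 4.83, 4.77 and 4.98 in WT. The Gas-/- arrays were again the highest, by 0.51 over WT (adjusted p = 0.0117) and with hGas at -0.52 against Gas-/- (adjusted p = 0.00907). The median of the 4 was 0.38 for Gas-/- vs WT and 0.0039 for hGas vs WT. Of 14 ADAM and ADAMTS genes, the family of Adamdec1, 0 were called for Gas-/- vs WT (2 higher and 0 lower unadjusted) and 0 for hGas vs WT (0 and 0 unadjusted), with medians of 0.030 and -0.0047. Adamts5, an aggrecanase gene, was lower in hGas than in Gas-/- by a log2 difference of -0.58 (adjusted p = 0.0318, kept in 5 of the 9 fits that left out 1 array).

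Of 13 other inhibitors and regulators, 3 were higher in Gas-/- than in WT and 0 lower (4 and 0 unadjusted). These were Cd44, a receptor for hyaluronan (0.24, adjusted p = 0.0412), Furin, which activates the Mmp14 precursor (0.38, adjusted p = 0.0351), and Cst3, the cathepsin inhibitor cystatin C (0.17, adjusted p = 0.0497). With 1 array left out these calls were kept in 2 (Cd44), 3 (Furin) and 2 (Cst3) of 9 fits, and with no filter their adjusted p was 0.0693, 0.0643 and 0.0818. With probe sets averaged Cd44 stood at 0.13 (adjusted p = 0.1002). Serping1, an inhibitor of complement proteases, was lower in hGas than in Gas-/- (-0.26, adjusted p = 0.0174, kept in 7 of 9 fits). The list median was 0.070 for Gas-/- vs WT and -0.076 for hGas vs WT. Among 12 plasminogen and cathepsin proteases, Lgmn, legumain (0.37, adjusted p = 0.00829), and Htra1, a secreted serine protease (0.36, adjusted p = 0.0344), were higher in Gas-/- than in WT, and the cathepsin gene Ctsz was lower (-0.19, adjusted p = 0.0174). Ctsl, another cathepsin gene, was lower in hGas than in Gas-/- (-0.25, adjusted p = 0.0121), but by -0.093 with its probe sets averaged (adjusted p = 0.448). The calls of Htra1 and Ctsz were kept in 5 and 7 of the 9 fits. That list's median was 0.15 for Gas-/- vs WT.

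Of 26 matrix genes, among them substrates of these proteases, 4 were higher and 1 lower in Gas-/- than in WT and 21 were not called. Vcan, a large proteoglycan, was higher by 0.60 (adjusted p = 0.00375), with 0.22 when its probe sets were averaged (adjusted p = 0.146). Lama2, a laminin chain, was higher by 0.55 (adjusted p = 0.0155, kept in 5 of 9 fits). Eln, elastin, was lower by a log2 difference of -0.68 (adjusted p = 0.00632). Tnc, tenascin C, was higher in hGas than in Gas-/- by 0.31 (adjusted p = 0.00581), and by 0.26 with probe sets averaged (adjusted p = 0.0644). The list median was 0.030 for Gas-/- vs WT and 0.033 for hGas vs WT. Of 8 genes tested among known inducers of protease genes, Ets1, a transcription factor, was higher in Gas-/- than in WT by 0.51 (adjusted p = 0.00755) and was the 1 called there. In hGas vs Gas-/-, Ets1 (-0.68, adjusted p = 0.00124), Tgfb1, a cytokine gene (-0.43, adjusted p = 0.0115), and Junb (-0.35, adjusted p = 0.0452) were lower and Jun was higher (0.42, adjusted p = 0.0198). The Jun and Junb calls were kept in 5 and 2 of the 9 fits. These genes encode subunits of AP-1. That list's median was 0.054 for Gas-/- vs WT and -0.13 for hGas vs WT.

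Marker lists of other cell types were read beside the members. Of 8 fibroblast markers, 4 were higher in Gas-/- than in WT and 0 lower (6 and 1 unadjusted), led by Thy1 (0.76, adjusted p = 0.00484), Pdgfra (0.38, adjusted p = 0.00491) and Dcn (0.26, adjusted p = 0.0375, kept in 3 of 9 fits). The mean log2 level of that list was 10.46 to 10.53 in hGas and 10.63 to 10.69 in Gas-/-, against 10.34 to 10.55 in WT. Its summed linear level was 25735 to 26345 in hGas and 26493 to 27599 in Gas-/-, without overlap. The WT range, 23804 to 27759, overlapped both. For hGas vs WT, 0 of the 8 fibroblast markers were called (1 higher and 0 lower unadjusted). For hGas vs Gas-/-, 0 were higher and 4 of the 8 lower.

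Of 9 macrophage markers tested, 2 were higher in Gas-/- than in WT and 0 lower (4 and 0 unadjusted), namely Lyz2 (0.52, adjusted p = 0.0128) and Cd163 (0.67, adjusted p = 0.0105). The Lyz2 call was kept in 8 of 9 fits. The summed linear level of the list was 4382 to 5758 in hGas and 6528 to 7310 in Gas-/-, against 5272 to 5547 in WT. Its mean log2 level was 7.82 to 8.25 in hGas and 8.24 to 8.38 in Gas-/-, with overlap, against 7.97 to 8.12 in WT. For hGas vs WT, 0 macrophage markers were called (0 higher and 1 lower unadjusted), and for hGas vs Gas-/- 0 were higher and 4 of the 9 lower. All 6 leukocyte markers tested were higher in Gas-/- than in WT, among them Ptprc (0.87, adjusted p = 0.00386), and 5 of the 6 were lower in hGas than in Gas-/-. For hGas vs WT, 0 of the 6 leukocyte markers were higher, 2 were lower (1 and 3 unadjusted) and 4 were not called. The 2 lower ones were Coro1a (-0.74, adjusted p = 0.0273) and Cd79a, a B cell receptor gene (-1.76, adjusted p = 0.0292), calls kept in 4 and 2 of 9 fits. The summed linear level of the leukocyte list was 5658 to 7838 in hGas, 9907 to 11412 in Gas-/- and 3101 to 5201 in WT, while its mean log2 level was 7.28 to 7.46 in hGas, 8.35 to 8.71 in Gas-/- and 7.51 to 7.88 in WT. Against WT, the leukocyte list in hGas was thus higher by the summed level and lower by the mean log2 level. Cd3e was under log2 4 on every array.

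Of 10 colonic epithelium markers, 2 were higher and 0 lower in Gas-/- than in WT (4 and 0 unadjusted). These were Epcam (0.35, adjusted p = 0.000526) and Krt18 (0.26, adjusted p = 0.0407, kept in 2 of 9 fits). For hGas vs WT, 1 was higher and 0 lower (3 and 0 unadjusted), namely Car1 (0.47, adjusted p = 0.0160, kept in 7 of 9). For hGas vs Gas-/-, Epcam (-0.36, adjusted p = 0.000354) and Krt18 (-0.27, adjusted p = 0.0277) were lower and Car1 was higher (0.26, adjusted p = 0.0308). Those calls were kept in 9, 5 and 5 of 9 fits. The summed linear level of the list was 107430 to 114380 in hGas and 109618 to 111564 in Gas-/-, against 94334 to 105317 in WT. Of the 6 endothelial markers, 0 were called for Gas-/- vs WT (2 higher and 0 lower unadjusted) or hGas vs WT (0 and 0 unadjusted), and of the 7 smooth muscle markers 0 (0 and 1 unadjusted for Gas-/- vs WT, 0 and 0 for hGas vs WT). Their summed linear levels were 443 to 540 and 59506 to 65055 in hGas, 544 to 559 and 55809 to 63918 in Gas-/-, and 488 to 527 and 59838 to 67828 in WT. The part of cell composition in the differences of Timp2, Timp3 and Adamdec1 was not tested.

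**Figure D5:**
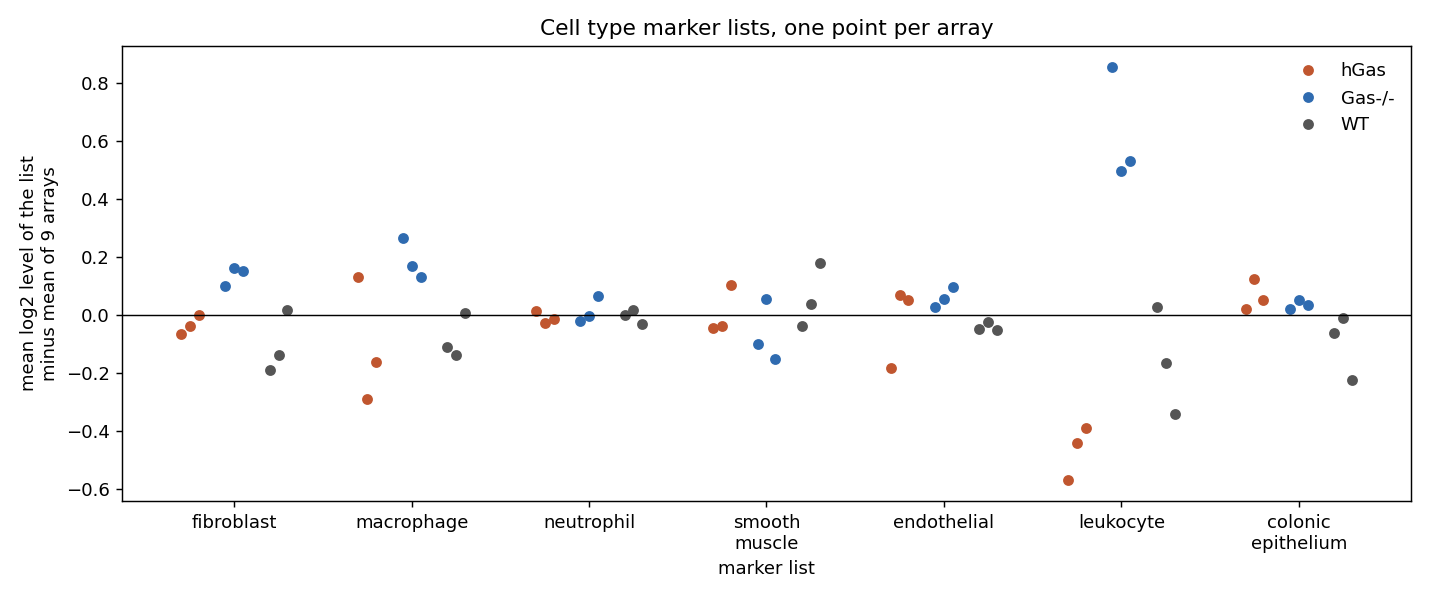
Mean log2 level of each cell type marker list minus its mean over the 9 arrays, with 1 point per array for hGas, Gas-/- and WT. The Gas-/- arrays are the highest for the fibroblast and leukocyte lists, and the neutrophil list stays near background in every group.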

How the data were processed

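Colonic mucosa was measured on 9 one-colour Affymetrix arrays, 3 per genotype, grouped by their titles. The deposited values are log2 expression per probe set made with GCRMA, per the submitters' processing notes, with no version stated; GCRMA uses probe sequence to correct for background and normalises by quantiles. Quantile normalisation sets all arrays to one distribution, so each difference is relative to the rest of the array. Scanner files were not used here. The platform annotation paired 34945 probe sets with 1 gene, 932 with several and 9160 with none, and 64 were controls; only those with 1 gene were used, and every member symbol matched.

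A gene was its probe set of highest mean, tested if at least 3 arrays reached log2 4. Genotype was the only term of a fit to all 9 arrays with limma 3.58.1 in R 4.3.3 (lmFit, eBayes with trend, 6 residual and 3.47 prior degrees of freedom). Probe sets were fitted the same way. Tests were 2-sided, with Benjamini-Hochberg adjustment over all 11273 genes or 19822 probe sets. The fit was tested on simulated data.

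The members and all lists were chosen with earlier results of these data known. Lists held 164 genes, of which 153 matched by symbol; Col1a1 and Col3a1 were in 2 lists. Besides the members, the text names up to 4 called genes per pathway list and 3 per marker list, by the smallest F test p, and the 3 genes most correlated with each of the 2 members of smallest F test p. Alternatives varied the filter, the choice of probe set, the normalisation, the trend, array weights, the arrays fitted, the threshold and a block for the replicate number, and left out each array in turn. The labels give replicate numbers but no shared litter, batch or day. Deviations of same-numbered arrays from their group means correlated at 0.114, 0.184 and 0.194 between hGas and WT, all over 0.1, so the numbers were taken to pair these groups, from the data alone. The main fit did not use this pairing, so its hGas vs WT p-values treat the arrays as unpaired. The comparison of probe sets of a gene was chosen after seeing the data. Promoter sequences came from RefSeq, build GRCm38.p6. Plots used matplotlib 3.10.9 (Python 3.11.15). The number of arrays limits the precision.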

Additional observations from a re-analysis of the deposited data

How the results depend on the processing

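The calls of Adamdec1 for hGas vs WT and Gas-/- vs WT, and of Timp3 for Gas-/- vs WT and hGas vs Gas-/-, were kept in all 9 fits that left out 1 array. Those fits kept the probe set chosen on all 9 arrays. With the probe sets of a gene averaged, 1 member was called in place of 3 for Gas-/- vs WT and 1 in place of 3 for hGas vs Gas-/-. By the F test over the 3 genotypes, 1 was called in place of 3. This setting brings in the Timp2 and Timp3 probe sets that were not called. For hGas vs Gas-/-, Timp2 then stood at -0.20 (adjusted p = 0.0970) and lost its call, as Adamdec1 did, and the call of Timp3 was kept. Averaging also turned Zfhx3 to -0.0815 for Gas-/- vs WT and 0.0062 for hGas vs Gas-/-. The call of Adamdec1 for hGas vs Gas-/- was lost with no filter (adjusted p = 0.0865), no trend (0.0730), probe sets averaged (0.0547) and in a fit to the 6 arrays compared (0.0823).

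Over all genes, the count called for hGas vs WT was 131, and it was 58 with no filter, 27 in a fit to the 6 arrays compared, 21 at an adjusted p under 0.01 and 26 to 104 with 1 array left out, lowest without hGas replicate 1. For Gas-/- vs WT, 1366 genes were called, 674 at the stricter threshold and 888 to 1375 with 1 array left out. For hGas vs Gas-/-, 1866 were called, 898 at the stricter threshold and 1219 to 1996 with 1 array left out. The cause of these changes was not tested, beyond the stricter threshold itself.

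For the other groups the replicate numbers were less clear, since not every pair correlated over 0.1. For hGas and Gas-/-, 2 of 3 pairs did (0.085 to 0.22, 5 of 6 arrays best with their own number). That was close to hGas and WT (0.11 to 0.19, 6 of 6). For Gas-/- and WT, 2 of 3 pairs did (-0.0037 to 0.14, 4 of 6). Whether the numbers pair these groups is not settled, and the block was fitted to all 3 groups at once. With the replicate number as a block, 283 genes were called for hGas vs WT, and 2 member probe sets were called in place of 1 for hGas vs WT and 4 in place of 2 for hGas vs Gas-/-, the added ones being of Timp2 and Timp3. The block changed no call of a member gene. Of the values of single genes and probe sets under the alternatives, 3677 kept their side of the threshold, 116 of them changing sign while not called, 279 lost the call in the same direction, 32 gained it, and 2, those of Zfhx3 above, lost the call and changed sign. Mmp9 and Mmp10 stood too near background for any difference to be read, and Mmp3 and Timp1 stood just above it.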
